A study of Mus musculus with 4 samples.

Results

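A set of 171 genes separated the lung fibroblast libraries of embryonic day 18.5 (E18.5) and postnatal day 28 (P28) from those of embryonic day 16.5 (E16.5) and postnatal day 7 (P07). They were taken from 23444 gene symbols in the deposited table. A gene was a member when the lower value of one pair of libraries was at least 2-fold above the higher value of the other pair, on log2(FPKM + 1) after scaling, with both libraries of the higher pair at 5 or more. FPKM are fragment counts divided by transcript length and by the library's total, so levels can be compared between genes per unit of length. Of the members, 77 were higher in E18.5 and P28 and 94 were higher in E16.5 and P07. The rule fixed these directions, so they are described and not tested.

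All 4 groups were wild-type C57BL6 mice from timed pregnancies, with no treatment named, and the cells were Pdgfra+ fibroblasts from lung. Pdgfra encodes a receptor for platelet-derived growth factors, and the sort for it is what defines the cells. There was 1 library per age, so no spread between animals can be given, and the labels do not say whether animals were pooled. The libraries of a pair are different ages and not replicates of a condition. The pairing is not in the labels. It was proposed after earlier results on these libraries had shown cell division genes higher at E16.5 and P07, so their direction here is no independent support.

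Lung fibroblasts multiply and lay down matrix while the saccules form before birth and while septa divide them into alveoli after it. A dividing cell copies its DNA in S phase, for which it makes replication enzymes and histones, and then builds a spindle and separates its chromosomes in mitosis. Many genes of mitosis are held down in resting cells and switched on together late in the cycle, and CCAAT boxes are common in their promoters. Glucocorticoid hormone, which rises before birth, acts through its nuclear receptor and is known to promote maturation of the lung and to slow the growth of its mesenchyme.

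In scale, the library of E18.5 stood apart from the others. Median-ratio scaling over the 7930 genes at 1 FPKM or more in every library divided E16.5 by 1.15, E18.5 by 0.581, P07 by 1.38 and P28 by 1.08. It moved the median pair difference of all tested genes from -0.58 to -0.02 on the log2 scale, and all values below are scaled FPKM. FPKM hold no read totals, so depth is unknown, and a value listed at exactly 0 may reflect a failed estimate. General fibroblast markers were present at every age, with the collagen gene Col1a1 at 237 scaled FPKM at E16.5 and 303 at P07, against 261 at E18.5 and 515 at P28.

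Of 8194 genes with a mean of at least 2.5 scaled FPKM over the 4 libraries, called tested genes here, 0.94% were members higher in E18.5 and P28 and 1.15% were members higher in E16.5 and P07. Without a 2-fold limit, the pairs did not overlap for 1297 genes in the first direction (15.8%) and 1467 in the second (17.9%). The members thus split 45% to 55% between the directions. With FPKM as deposited the split was 5.63% to 94.4%, with 20 and 335 genes, and all 94 members of the second direction were among the 335. No member turned its direction under the 3 other scalings, although 12 members overlapped between the pairs as deposited. When the E18.5 library was left out, 742 genes met the rule with P28 alone above E16.5 and P07, and 301 in the opposite direction. Without E16.5 the counts were 186 and 343, without P07 they were 216 and 464, and without P28 they were 318 and 229. Leaving out a library can only add genes, so the 171 members are among these larger sets by construction.

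Genes of mitosis and cytokinesis made up the largest group of members. Of the 50 genes on that list, 33 were members higher in E16.5 and P07, and none was higher in E18.5 and P28. These are 71.7% of the 46 listed genes with the mean level of a tested gene, beside 1.15% of all tested genes. For 45 of the 46 the pairs did not overlap in this direction, beside 17.9% of all tested genes, and the median pair difference of the 46 was -2.04 on the log2 scale. Apart from the 33 members, 7 listed genes were separated 2-fold but missed the level of 5. In bulk RNA, fewer dividing cells and less of these transcripts per dividing cell cannot be told apart. The list was known to move this way before it was used here.

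The 33 mitosis members ranged from 8.35 to 106 scaled FPKM at E16.5, with a median of 14.4, and from 5.05 to 47.5 at P07, with a median of 10.2. At E18.5 they ranged from 0.86 to 22.1 with a median of 2.38, and at P28 from 0.63 to 8.996 with a median of 1.35. E16.5 was therefore the highest of the libraries by median and P28 the lowest. The count of 33 fell to 29 with upper-quartile scaling and rose to 40 as deposited. It was 12 with a pseudocount of 5 and 3 with a minimum of 20.

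Kif11, the plus-end motor that pushes the spindle poles apart (GRCm38 chromosome 19, 37376403 to 37421859, plus strand), had the widest separation on the list. It was at 24.96 scaled FPKM at E16.5 and 15.8 at P07, against 2.63 at E18.5 and 1.38 at P28. The nearest values of the pairs were 4.62-fold apart on the scale of value + 1. Cyclin B1 (Ccnb1, chromosome 13, 100778650 to 100786570, minus strand), the partner of the mitotic kinase Cdk1, was at 18.3 at E16.5 and 9.41 at P07, against 1.33 at E18.5 and 0.92 at P28. Cdk1 itself ranked the libraries alike, at 6.83, 1.09, 3.24 and 0.38 in order of age, but its P07 value lay under 5 and it is not a member.

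Foxm1, a transcription factor that drives late cell cycle genes (chromosome 6, 128362967 to 128376146, plus strand), was at 11.6 scaled FPKM at E16.5 and 12.1 at P07, against 0.86 at E18.5 and 1.77 at P28. Its E16.5 and P07 levels were almost the same. The topoisomerase Top2a, which untangles sister chromatids, was the more abundant, at 76.4 at E16.5 and 41.3 at P07, against 12.3 at E18.5 and 5.43 at P28. In neither gene did the pairs overlap. Ube2c, which tags mitotic proteins for destruction, was the most abundant mitosis member, at 106 at E16.5 and 47.5 at P07, against 22.1 at E18.5 and 8.996 at P28.

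Members of the list cover each stage of division. They include the kinases Aurka, Aurkb, Plk1, Ttk and Bub1, the kinetochore genes Ndc80, Nuf2 and Spc25, and the condensin genes Smc2, Ncapd2 and Ncapg. They also include the cytokinesis genes Anln, Prc1, Racgap1 and Kif23. Mki67, the antigen used to stain dividing cells, was not a member. It was at 69.0 scaled FPKM at E16.5 and 39.0 at P07, against 21.1 at E18.5 and 5.18 at P28, in the same order but with E18.5 and P07 less than 2-fold apart. The exception in direction was Pttg1, securin, at 3.72, 7.61, 5.85 and 7.61 in order of age. Genes of mitosis outside the list were members as well, named after their values were seen, such as the kinesins Kif18b and Kif15, the centromeric histone Cenpa and the spindle gene Aspm.

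The windows before the start of Kif11 and Ttk are shown because CCAAT boxes, sites for the factor NF-Y, were the motif whose share among members stood furthest from that among tested genes. They are the 250 bases upstream of the RefSeq start on GRCm38.p6, read in the direction of the gene, and both lie outside the GENCODE gene model. Capitals mark CCAAT or its reverse complement ATTGG and, in Kif11, TTCAAA, the reverse complement of the CHR letters TTTGAA.
Kif11 (chr19:37376132-37376381, plus strand): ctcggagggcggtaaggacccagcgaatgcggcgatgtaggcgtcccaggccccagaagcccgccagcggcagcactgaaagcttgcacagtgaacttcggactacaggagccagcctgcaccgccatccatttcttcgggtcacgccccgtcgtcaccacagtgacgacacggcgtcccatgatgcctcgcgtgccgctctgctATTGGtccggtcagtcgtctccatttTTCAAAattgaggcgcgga
Ttk (chr9:83834439-83834688, plus strand): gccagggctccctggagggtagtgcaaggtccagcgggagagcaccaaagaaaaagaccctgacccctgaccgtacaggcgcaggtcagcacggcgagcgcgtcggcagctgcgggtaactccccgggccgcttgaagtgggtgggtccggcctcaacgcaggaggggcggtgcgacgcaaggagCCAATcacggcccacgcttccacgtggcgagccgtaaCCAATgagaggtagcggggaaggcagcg
In Kif11 the CCAAT match begins 45 bases before the start and the CHR match 19 bases before it. In Ttk the matches begin 65 and 28 bases before the start. These are matches of letters and not shown to be bound.

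A CCAAT match on either strand stood in 65.8% of the promoters of members higher in E16.5 and P07 (52 of 79 with a RefSeq entry) and in 78.6% of those of the mitosis members (22 of the 28 among 33 that have an entry). The share was 27.0% among members higher in E18.5 and P28 (17 of 63), 36.1% among 6500 tested genes and 34.5% among all 27025 promoters. The CHR letters were found in 24.1% of promoters of the first set, 14.3% of the second and 10.2% of tested genes. E2F letters, TTTNNCGC, were found in 11.4%, 1.59% and 7.48%. AP-1 letters, TGANTCA, ran the other way, in 3.80% of promoters of genes higher in E16.5 and P07, 12.7% of those higher in E18.5 and P28 and 3.62% of tested genes. GC boxes, GGGCGG, were in 62.0%, 46.0% and 62.9%. AGAACA, a core of many glucocorticoid receptor sites that was searched after the data were seen, was in 10.1%, 15.9% and 9.78%, and in 16.1% of all promoters. The other motifs searched were the CRE (TGACGTCA), FOXO site (TGTTTAC), E-box (CACGTG) and TATA box (TATAAA). Base composition differs too, with a median of 57.6% G and C in both sets of members and 60.8% in tested genes. The motifs were searched on both strands, overlaps with other motifs were kept, and no test was made.

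**Figure D1:**
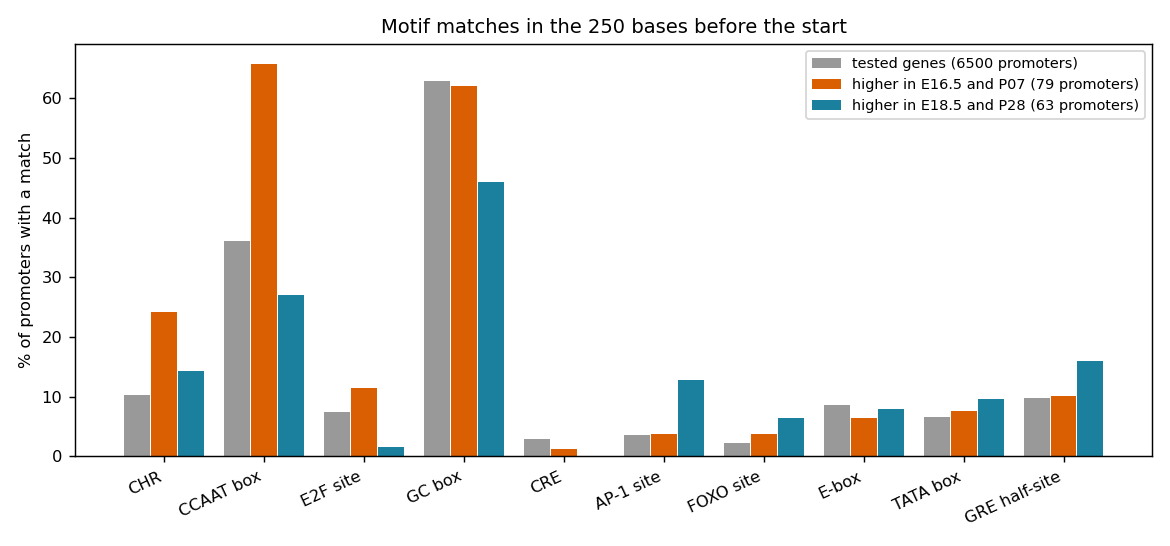
Percent of promoters (250 bases before the RefSeq start, either strand) with a match to each of 10 motifs. Bars stand for tested genes (6500 promoters), members higher in E16.5 and P07 (79) and members higher in E18.5 and P28 (63), and the CCAAT box shows the widest gap, at 36.1%, 65.8% and 27.0%.

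Enzymes and factors of DNA replication were the next group. Of 43 genes on the list, 8 were members higher in E16.5 and P07 and none was higher in E18.5 and P28. These are 25.8% of the 31 with the mean level of a tested gene, beside 1.15% of all tested genes. For 29 of the 31 the pairs did not overlap in this direction, beside 17.9% of all tested genes. The median pair difference of the 31 was -1.49. Rrm2, the regulated subunit of ribonucleotide reductase, which makes deoxynucleotides (chromosome 12, 24708241 to 24714146, plus strand), had the widest separation of any protein-coding member higher in E16.5 and P07. It was at 32.5 scaled FPKM at E16.5 and 22.8 at P07, against 2.09 at E18.5 and 1.99 at P28. The lower pair was thus almost level, and the nearest values were 7.71-fold apart. Gins2, a subunit of the replicative helicase, was at 42.6, 2.60, 22.6 and 3.79 in order of age.

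The other replication members were Chaf1b, Tk1, Uhrf1, Lig1, Prim1 and Mcm2. They act in nucleosome assembly, thymidine salvage, maintenance of DNA methylation, ligation, primer synthesis and DNA unwinding by the replicative helicase. Among them Mcm2 was at 20.6 scaled FPKM at E16.5 and 10.7 at P07, against 4.096 at E18.5 and 1.63 at P28. Pcna, the clamp of the polymerases and the most abundant gene of the list, was no member, because its pairs overlapped. It was at 95.6 at E16.5 and 51.7 at P07, against 56.5 at E18.5 and 19.3 at P28. As deposited, 20 genes of the list met the rule in place of 8, and with a pseudocount of 5 it was 3. None of 24 genes for repair at replication forks was a member, and 5 of them had the mean level of a tested gene.

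Replication-dependent histone genes, which are expressed in S phase, gave 6 members of 52 on the list, all higher in E16.5 and P07. They were Hist1h2bl, Hist1h2bf, Hist1h2bb, Hist1h2ak, Hist1h2bm and Hist1h1a, and all lie on chromosome 13 between 21715763 and 23764406. The 6 are 30% of the 20 listed genes with the mean level of a tested gene, beside 1.15% of all tested genes. For 13 of the 20 the pairs did not overlap in this direction, beside 17.9% of all tested genes. Hist1h2bl was at 64.9 scaled FPKM at E16.5 and 21.8 at P07, against 2.71 at E18.5 and 1.45 at P28. Hist1h2bm was at 83.9, 11.2, 25.5 and 2.79 in order of age. In both, E16.5 was the highest library and P28 the lowest. Hist1h4d, the most abundant gene of the list, was no member, because its pairs overlapped. It was at 622, 430, 251 and 146 in order of age. The whole list summed to 1144, 617, 470 and 207 in order of age, so the sums of the pairs overlapped as well. Histone genes are near-identical copies whose reads can be split between them, and most of their transcripts lack a poly(A) tail, so single values are uncertain. The 3 lists of mitosis, replication and histones together held 47 of the 94 members, or 50.0%. Of all 8194 tested genes the same lists held 46, 31 and 20.

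Regulators of entry into the cycle were listed as well. Of 29 G1 cyclin, E2F and Rb family genes only E2f8, a repressor among the E2F factors, met the rule (1 of 22 tested, beside 1.15% of all tested genes). It was at 8.24 scaled FPKM at E16.5 and 5.84 at P07, against 0.70 at E18.5 and 0.63 at P28. For 11 of the 22 the pairs did not overlap in this direction, beside 17.9% of all tested genes. By pair means, 19 of the 22 were lower in E18.5 and P28. Cdk4, the most abundant gene of the list, was at 73.8, 31.8, 43.5 and 21.2 in order of age, less than 2-fold separated. Cyclin D1 (Ccnd1) was at 5.40, 5.06, 37.7 and 17.2 in order of age, so its P07 and P28 values both lay above the embryonic ones. Of 35 CDK inhibitors and other antiproliferative genes, Klf9 and Ndrg2 were members higher in E18.5 and P28. These are 6.06% of the 33 tested genes of the list, beside 0.94% of all tested genes. For 12 of the 33 the pairs did not overlap in this direction, beside 15.8% of all tested genes. The median pair difference of the 33 was 0.67. Cdkn1a, the inhibitor p21, was at 16.7 at E16.5 and 5.38 at P07, against 37.8 at E18.5 and 23.3 at P28. Its pairs did not overlap, but E16.5 and P28 were less than 2-fold apart.

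**Figure D2:**
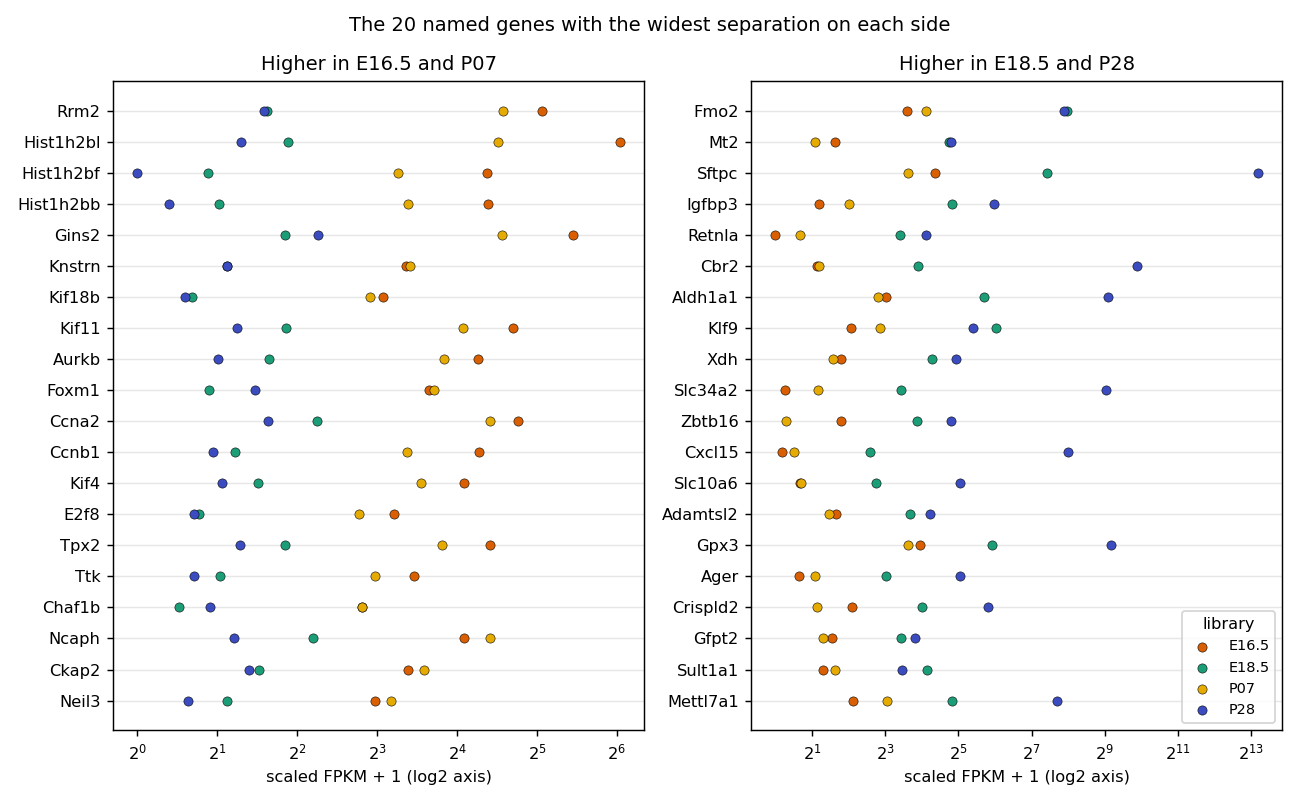
Scaled FPKM + 1 (log2 axis) in each of the 4 libraries for the 20 named members with the widest separation in each direction, 1 point per library. On the left E16.5 and P07 lie to the right of E18.5 and P28, and on the right the order is reversed, with P28 far above E18.5 for Sftpc, Cbr2 and Slc34a2.

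Several members higher in E16.5 and P07 are known for other roles, and among them Cxcr4 and Casp8 are named after their values were seen. Acta2, smooth muscle actin (chromosome 19, 34241090 to 34255590, minus strand), was at 146 scaled FPKM at E16.5 and 156 at P07, against 68.0 at E18.5 and 9.22 at P28. It was the 1 member among 19 contractile genes (1 of 17 tested, beside 1.15% of all tested genes), and P28 stood far below E18.5. Its enteric relative Actg2 fell just outside the rule, at 43.1, 21.2, 71.9 and 0.86 in order of age. Srgn, serglycin, a proteoglycan of secretory granules, was at 82.1, 11.3, 137 and 32.3, with P07 the highest. Cxcr4, the receptor for the chemokine Cxcl12, was at 6.07, 1.82, 5.36 and 0.82. Casp8, an initiator caspase, was at 12.1, 4.38, 15.4 and 5.26. Cxcr4 was thus near the minimum level and lowest at P28, while Srgn and Casp8 were lowest at E18.5. Among abundant genes of chromatin and the cytoskeleton, the tubulin Tubb5 was at 160 at E16.5 and 137 at P07, against 56.7 at E18.5 and 45.3 at P28. The tubulin-binding protein Stmn1 was at 106, 29.1, 81.9 and 39.3 in order of age, and Hnrnpa1, a splicing factor with many processed copies in the genome, at 71.3, 23.9, 55.3 and 10.6. All of these were highest at E16.5.

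Members outside the lists also hold genes of DNA damage and replication control, named after their values were seen. Topbp1, which activates the checkpoint kinase ATR, was at 23.5 scaled FPKM at E16.5 and 16.4 at P07, against 6.50 at E18.5 and 5.70 at P28. Tipin, a fork protection factor, was at 19.9, 4.21, 15.8 and 5.005 in order of age, and the DNA glycosylase Neil3 was a further member. Tmpo, a lamina-associated protein of the nuclear envelope, was at 34.4, 12.8, 31.3 and 8.14. In each of them E18.5 and P28 lay below both other libraries.

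The widest separation of all belonged to small nucleolar RNAs, guides for the modification of ribosomal RNA. Snora65 was at 41.2 scaled FPKM at E16.5 and 53.3 at P07 and listed at 0 at E18.5 and P28. Snora44 was at 77.7 and 33.7, and Snord15b at 56.4 and 12.0, with the same libraries listed at 0. Their transcripts are 129 to 145 bases long, and no fold is given against a listed 0. Members higher in E16.5 and P07 had a median transcript length of 1028 bases, those higher in E18.5 and P28 1452 bases, and tested genes 1356 bases. The part of length in the calls was not tested.

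Glucocorticoid response genes were the largest group among members higher in E18.5 and P28. Of 25 genes on the list, 9 were members in this direction and none in the other, which is 37.5% of the 24 with the mean level of a tested gene, beside 0.94% of all tested genes. The pairs did not overlap for 15 of the 24 in this direction, beside 15.8% of all tested genes, and the median pair difference of the 24 was 1.57. The 9 members had medians of 3.22 scaled FPKM at E16.5 and 2.23 at P07, against 16.5 at E18.5 and 28.8 at P28. The count was 4 as deposited and 5 with a pseudocount of 5. Hormone was not measured, and the list's earlier median at E18.5 was known when it was used.

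Mt2, a metallothionein that binds zinc and copper (chromosome 8, 94172664 to 94173568, plus strand), was at 2.12 scaled FPKM at E16.5 and 1.12 at P07, against 25.7 at E18.5 and 27.1 at P28. The higher pair was level and stood 8.56-fold above the nearest lower value. Klf9, a transcription factor induced directly by the glucocorticoid receptor (chromosome 19, 23141226 to 23168134, plus strand), was at 3.22 at E16.5 and 6.24 at P07, against 64.1 at E18.5 and 41.5 at P28. Zbtb16, the zinc finger factor PLZF (chromosome 9, 48654297 to 48836222, minus strand), was at 2.47, 13.6, 0.23 and 27.1 in order of age. In both genes every value of the higher pair stood more than 4-fold above the lower pair. Tsc22d3, the leucine zipper protein GILZ, was at 4.72 at E16.5 and 3.59 at P07, against 12.1 at E18.5 and 36.4 at P28.

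The other members of the list were Errfi1, an inhibitor of the EGF receptor, Cebpd, Sult1a1, Slc10a6 and Pik3r1. Errfi1, the most abundant of the 9, was at 23.8 scaled FPKM at E16.5 and 19.9 at P07, against 81.3 at E18.5 and 168 at P28. Hsd11b1, which turns inactive 11-keto steroid into active glucocorticoid and was not on the list, was a member too. It was at 4.74 at E16.5 and 6.18 at P07, against 21.4 at E18.5 and 232 at P28, so most of its difference lay at P28. Listed genes that did not follow include Sgk1, at 6.94, 7.45, 55.9 and 18.3 in order of age, and Mt1, at 8.60, 105, 0.20 and 16.9, whose E16.5 and P28 values were under 2-fold apart.

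The window before the start of Mt2 is shown as the widest separated of these genes, with an AP-1 match in capitals (TGANTCA, beginning 79 bases before the start).
Mt2 (chr8:94172368-94172617, plus strand): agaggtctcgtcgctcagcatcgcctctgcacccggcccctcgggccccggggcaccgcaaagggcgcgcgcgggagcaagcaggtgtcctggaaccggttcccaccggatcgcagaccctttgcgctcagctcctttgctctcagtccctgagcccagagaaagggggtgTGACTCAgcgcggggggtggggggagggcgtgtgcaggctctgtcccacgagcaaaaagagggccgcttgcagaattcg
None of the other motif letters searched is in this window.

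Immediate early genes, which tissue dissociation can raise, gave no member. Summed over 31 listed genes they stood at 1594 scaled FPKM at E16.5 and 712 at P07, against 2837 at E18.5 and 1466 at P28. The E16.5 sum thus lay above that of P28 and the pairs overlapped. The pairs did not overlap, with E18.5 and P28 higher, for 6 of the 29 tested genes of the list, beside 15.8% of all tested genes. By pair means, 23 of the 29 were higher in E18.5 and P28. The median pair difference of the 29 was 0.58, beside -0.02 for all tested genes. Of 21 heat shock and chaperone genes, Hspb1 and Hspb8, small heat shock proteins, were members higher in E18.5 and P28. These are 9.52% of the list, whose 21 genes were all tested, beside 0.94% of all tested genes. The pairs did not overlap in this direction for 6 of the 21. Hspb1 was at 35.1 at E16.5 and 18.7 at P07, against 200.2 at E18.5 and 123 at P28. The part of handling in the members was not tested.

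**Figure D3:**
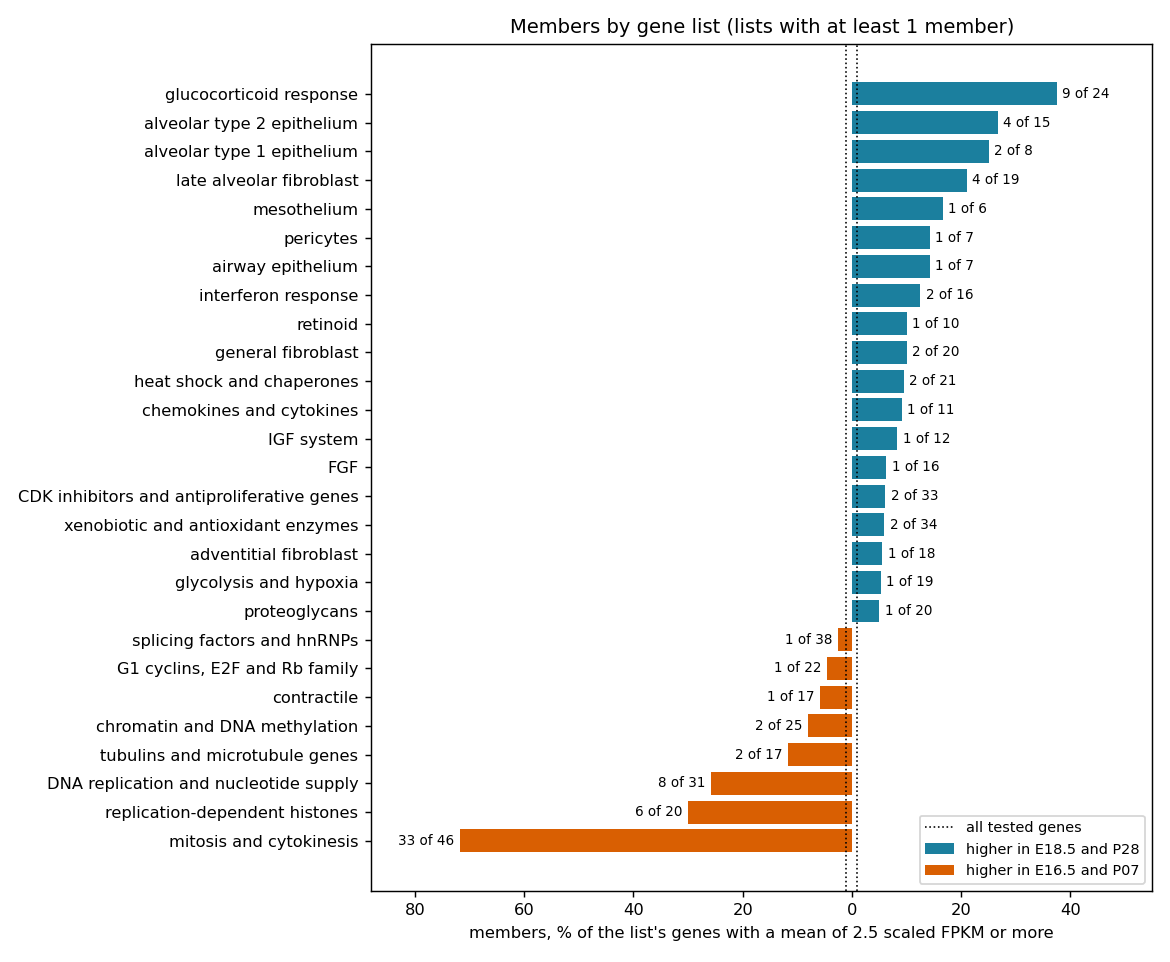
Members as percent of each list's genes with a mean of 2.5 scaled FPKM or more, for the lists with at least 1 member, with bars to the left for genes higher in E16.5 and P07 and to the right for E18.5 and P28. Dotted lines mark all tested genes (1.15% and 0.94%), and mitosis (33 of 46) and glucocorticoid response (9 of 24) hold the longest bars on each side.

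Fibroblast genes were members only in the direction of E18.5 and P28, apart from the contractile gene Acta2. Pdgfra, the sort marker (chromosome 5, 75152292 to 75198215, plus strand), was just inside the rule, at 77.3 scaled FPKM at E16.5 and 81.9 at P07, against 165 at E18.5 and 174 at P28. The values of each pair were close, and the nearest values were 2.003-fold apart. Tcf21, a transcription factor of lung mesenchyme, was at 30.1, 88.8, 18.8 and 130 in order of age. These were the 2 members among 20 general fibroblast genes (10%, beside 0.94% of all tested genes). As deposited the pairs overlapped for Pdgfra, at 88.7, 95.9, 113 and 188 in order of age. Tcf21 as deposited kept its order but was not 2-fold separated.

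Of 20 genes that mark late alveolar fibroblasts, 4 were members, namely Fmo2, Mettl7a1, Tcf21 and Macf1. These are 21.1% of the 19 tested genes of the list, beside 0.94% of all tested genes. For 14 of the 19 the pairs did not overlap in this direction, beside 15.8% of all tested genes. The median pair difference of the 19 was 1.80, and the count was 1 as deposited. Fmo2, a flavin monooxygenase (chromosome 1, 162874317 to 162898726, minus strand), had the widest separation of all genes higher in E18.5 and P28. It was at 11.1 scaled FPKM at E16.5 and 16.4 at P07, against 249 at E18.5 and 237 at P28, with 13.7-fold between the nearest values. The cytoskeletal linker Macf1 was at 34.4 at E16.5 and 47.9 at P07, against 119 at E18.5 and 271 at P28. Inmt on the same list was no member, since it was at 0.15, 1.83, 1.65 and 1178, high at P28 alone.

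Some members encode secreted or matrix proteins, and those named here other than Mgp, Igfbp3, Adamtsl2 and Adamtsl4 were chosen after their values were seen. Mgp, matrix Gla protein, an inhibitor of calcification, was at 286 scaled FPKM at E16.5 and 265 at P07, against 915 at E18.5 and 2276 at P28. Sparcl1, a matricellular protein, was at 142, 290.2, 134 and 298 in order of age. Igfbp3, which binds insulin-like growth factors (chromosome 11, 7206086 to 7213923, minus strand), was at 1.27 at E16.5 and 3.04 at P07, against 27.6 at E18.5 and 61.6 at P28. All of these had P28 highest. Other members of this kind were the laminin chain Lama2, the microfibril-associated Adamtsl2 and Adamtsl4, the crosslinking enzyme Tgm2, and Vasn, a TGF-beta binding protein. Lama2 was at 17.4 at E16.5 and 14.4 at P07, against 39.0 at E18.5 and 40.4 at P28. No collagen chain (24 listed) or elastic fibre gene (23 listed) was a member, and of 22 proteoglycan genes 1 was. With 0.94% of all tested genes being members in this direction, such counts on short lists say little.

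Enzymes of aldehyde, steroid and oxidant metabolism were also among the members. Aldh1a1, a retinaldehyde dehydrogenase that makes retinoic acid (chromosome 19, 20492715 to 20643465, plus strand), was at 7.18 scaled FPKM at E16.5 and 5.96 at P07, against 50.9 at E18.5 and 546 at P28. Its near neighbour Aldh1a7 was at 9.42, 29.1, 0.45 and 22.7 in order of age, and reads can be shared between such paralogs. Gpx3, a secreted glutathione peroxidase, was at 14.3 at E16.5 and 11.4 at P07, against 59.9 at E18.5 and 579 at P28. Cbr2, a carbonyl reductase of lung, was at 1.18, 14.0, 1.29 and 951 in order of age, and Xdh, xanthine dehydrogenase, was a further member. Of 36 xenobiotic and antioxidant genes, 2 were members (Fmo2 and Gpx3), and of 15 retinoid genes 1 was. Of all tested genes, 0.94% were members in this direction.

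Signalling members were few, as were members among all tested genes (0.94% higher in E18.5 and P28). Fgf2, a fibroblast growth factor, was at 2.18 scaled FPKM at E16.5 and 4.83 at P07, against 12.5 at E18.5 and 21.6 at P28. Il1r1, the interleukin-1 receptor, was at 4.46, 23.1, 7.79 and 24.99 in order of age, with the higher pair level. The heparan sulfate proteoglycan Sdc4 was at 10.5, 38.4, 13.6 and 90.3. Sdc4 and Fgf2 were highest at P28. Ifitm3, a membrane protein that blocks virus entry, was at 117 at E16.5 and 240 at P07, against 502 at E18.5 and 691 at P28, and with Irf9 was 1 of 2 members among 25 interferon response genes. Neither was a member as deposited or with scaling over genes at 10 FPKM or more. Lars2, a leucyl-tRNA synthetase of mitochondria, was at 321 at E16.5 and 167 at P07, against 4423 at E18.5 and 739 at P28, far highest at E18.5. Its E18.5 value was 2568 as deposited, and whether all reads counted for it come from its mRNA was not tested. The neighbours Tmem176a and Tmem176b overlap on chromosome 6 on opposite strands, so their reads may be shared, and both were members. None of the Wnt, TGF-beta and BMP, hedgehog, Notch, complement, ribosomal protein, oxidative phosphorylation or proteasome genes listed was a member. As only 0.94% and 1.15% of all tested genes were members, lists of such size can lack them for that reason alone. Their absence says little of these pathways.

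Further members higher in E18.5 and P28 had other roles, and Icam1, F3, Lrp4 and Lpcat1 are named after their values were seen. Retnla, the secreted resistin-like protein alpha, was listed at 0 at E16.5 and was at 0.59 scaled FPKM at P07, against 9.60 at E18.5 and 16.4 at P28. Icam1, an adhesion molecule for leukocytes, was at 3.72, 18.97, 3.24 and 13.6 in order of age, and the clotting initiator F3, tissue factor, at 2.10, 7.59, 1.23 and 7.12. In F3 the higher pair was level. Bnip3, a mitochondrial protein raised in hypoxia, was at 4.87, 21.0, 2.17 and 10.9. It was the 1 member among 24 glycolysis and hypoxia genes (1 of 19 tested, beside 0.94% of all tested genes). Ndrg2, an antiproliferative gene, was at 23.2, 119, 12.8 and 52.8 and Lrp4, a co-receptor that dampens Wnt signals, at 8.45, 30.0, 9.57 and 28.2. Lpcat1, which makes the main lipid of surfactant, was at 8.11, 25.4, 11.6 and 91.0 and was not on the alveolar type 2 list.

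Markers of epithelium were part of the set higher in E18.5 and P28. Lists of other cell types held 9 of the 77 members and none of the 94. They were Sftpc, Sftpb, Slc34a2 and Cxcl15 of 15 alveolar type 2 genes, Ager and Cldn18 of 11 alveolar type 1 genes, Scgb1a1 of 10 airway genes, Krt19 of 8 mesothelial genes and Abcc9 of 12 pericyte genes. Members were 26.7% of 15 tested type 2 genes, 25% of 8 type 1 genes and 14.3% of 7 airway genes. Of all tested genes, 0.94% were members in this direction. The pairs did not overlap in this direction for 11 of the 15, 4 of the 8 and 6 of the 7, beside 15.8% of all tested genes. On these lists 3, 1 and 3 more genes were separated 2-fold but missed the level of 5. Sftpc, surfactant protein C, was at 19.5 scaled FPKM at E16.5 and 11.3 at P07, against 171 at E18.5 and 9406 at P28. Scgb1a1, the secretoglobin of club cells, was at 1.76, 43.7, 19.04 and 17848 in order of age. In both P28 stood over 50-fold above E18.5. The alveolar type 2 list summed to 48.4 at E16.5 and 26.8 at P07, against 224 at E18.5 and 12575 at P28, and the airway list to 7.97, 66.6, 45.4 and 18496, with 5 of its 10 genes listed at 0 at E16.5, 1 at E18.5, 3 at P07 and none at P28.

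The lists of other cells did not share this order. Summed leukocyte markers were at 1686 scaled FPKM at E16.5 and 15.6 at P07, against 185 at E18.5 and 4697 at P28, and endothelial markers at 48.2, 103, 1101 and 341. Erythroid markers were at 58.7, 1062, 15.98 and 1.53. For each of these lists the sums of the pairs overlapped, and none of their genes was a member. The sums overlapped as well for the lists that hold Abcc9, Krt19, Ager and Cldn18. In order of age, pericyte markers summed to 78.7, 204, 251 and 45.3, and mesothelial markers to 2.12, 20.9, 44.1 and 180. Alveolar type 1 markers summed to 17.6, 57.6, 76.1 and 200. Of the 7 tested pericyte genes, 5 had a pair mean lower in E18.5 and P28. With the genes of all such lists left out, 68 and 94 members were left. Whether other members come from epithelial RNA in these libraries was not tested.

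Within the pairs, members higher in E18.5 and P28 were the less even. Of the 77, 55 were higher at P28 than at E18.5 and 22 the other way, with 45 within 2-fold. P28 was at least 2-fold above E18.5 for 30 and at least 8-fold above it for 10, while E18.5 was at least 2-fold above P28 for 2. The median difference of P28 minus E18.5 was 0.53 on the log2 scale, beside 0.06 for all tested genes. Of the 94 members higher in E16.5 and P07, 79 lay within 2-fold between these libraries, and 82 were higher at E16.5. The median difference of P07 minus E16.5 was -0.49, beside -0.02 for all tested genes. In their lower pair, 71 of the 94 were higher at E18.5 than at P28, and 84 lay within 2-fold.

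**Figure D4:**
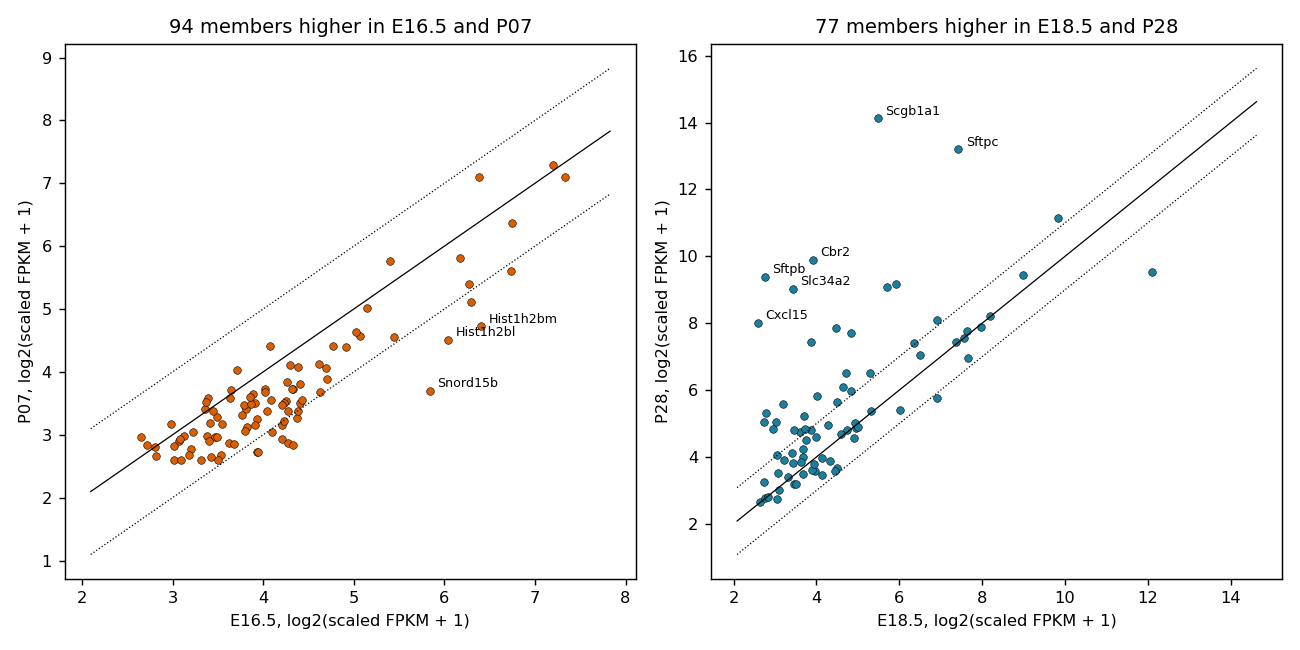
log2(scaled FPKM + 1) in the libraries of the higher pair, E16.5 against P07 for 94 members (left) and E18.5 against P28 for 77 members (right), 1 point per gene, with lines at equality (solid) and 2-fold (dotted). On the left 79 points lie within the 2-fold lines, and on the right 45 do, with Scgb1a1, Sftpc and Cbr2 far above them.

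The pairs hold a step before birth and a step after it that share no library. Between E16.5 and E18.5, 654 tested genes were at least 2-fold higher at the later age, and between P07 and P28, 900 were. Both lists held 207 genes, which is 31.7% of the first and 23% of the second, while 91 genes of the first were at least 2-fold lower in the second step. At least 2-fold lower were 739 genes in the first step and 742 in the second, with 205 in both (27.7% and 27.6%) and 65 that went up in the second. The shares of 31.7% and 27.7% stand beside 900 and 742 of all 8194 tested genes that went up and down in the second step. The genes of the first step thus moved the same way in the second more often than tested genes at large. Across all tested genes the Pearson correlation of the steps was 0.187, a description over genes that are not independent. Most genes that moved in 1 step thus did not move 2-fold the same way in the other, and the members are a small share of them.

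**Figure D5:**
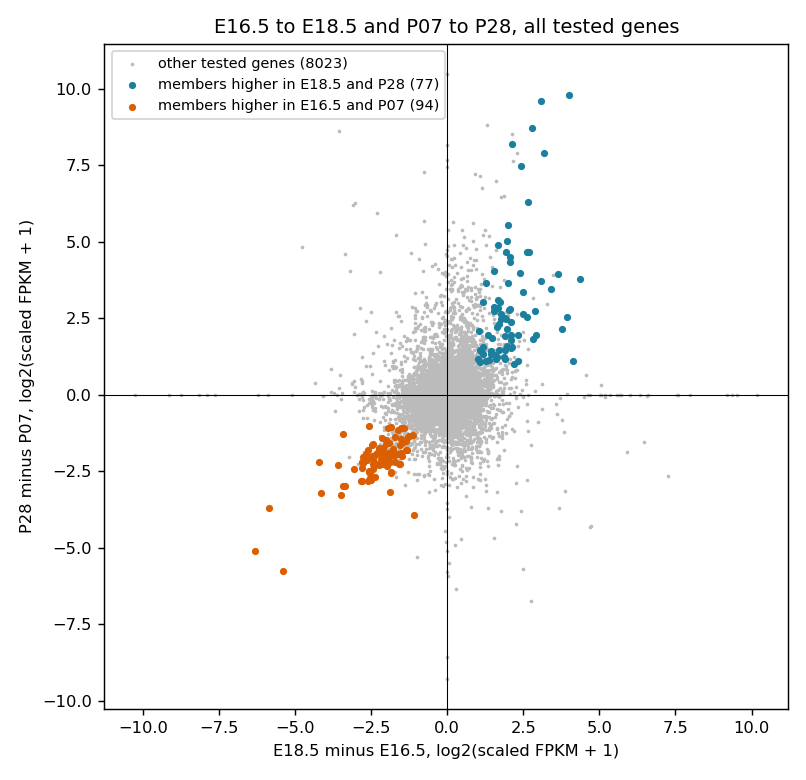
Difference E18.5 minus E16.5 (horizontal) against P28 minus P07 (vertical), in log2(scaled FPKM + 1), for 8194 tested genes, 1 point per gene. The 77 members higher in E18.5 and P28 lie at the upper right and the 94 higher in E16.5 and P07 at the lower left, as the rule requires. Across all tested genes, members included, the cloud shows little slope (r of 0.187).

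At the threshold the members blend into their neighbours. Just inside it, among genes higher in E18.5 and P28, were Pdgfra, Adamtsl4 and Nupr1, and just outside were Tmed3, Smim4 and Atf5. Tmed3 was at 4.40 scaled FPKM at E16.5 and 4.26 at P07, against 13.2 at E18.5 and 9.72 at P28, and Nupr1 at 5.55, 24.0, 11.4 and 67.4. In the other direction Tm6sf1, Fam111a and Stmn1 were just inside and Rad18, Rbmx2 and Actg2 just outside. Rad18 was at 8.53 at E16.5 and 5.92 at P07, against 2.46 at E18.5 and 1.42 at P28, and Tm6sf1 at 9.55, 2.71, 6.47 and 1.73.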

How the data were processed

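The authors' deposited table held FPKM for 23931 entries in 4 columns, 1 per age. Per the submitters' processing notes, reads were aligned with TopHat or TopHat2 2.0.9 to GRCm38 (mm10), and the program that made the FPKM was not given in the sources used here. Per the labels, RNA was taken with the QIAamp Circulating Nucleic Acid Kit, turned to cDNA with the Verso kit and made into Nextera XT libraries read as paired ends. Entries sharing a symbol were summed (745 entries, 258 symbols). Values were divided by median-ratio factors and taken as log2(value + 1). As each age had 1 library, no test was made, and precision cannot be stated because FPKM carry no depth. The members, the pairing and the 51 gene lists were chosen with earlier results of these data known. Named genes were the 20 of widest separation and the 8 most abundant per direction, up to 5 per list, the most abundant gene of each list, the 3 most abundant of lists of other cell types, Pdgfra, and the 3 just inside and outside the threshold. Other names were chosen after their values were seen. Coordinates are from GENCODE M21 and promoters from RefSeq GRCm38.p6 (250 bases). The AGAACA motif and the removal of small RNA and of genes of other cell types were added after seeing the data. The code was tested on simulated data. Python 3.11.15, numpy 2.4.6, pandas 2.3.3 and matplotlib 3.10.9 were used.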

Additional observations from a re-analysis of the deposited data

How the results depend on the processing

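The counts of 77 genes higher in E18.5 and P28 and 94 higher in E16.5 and P07 moved by over 1.5 times under these settings. They became 20 and 335 with FPKM as deposited, 38 and 36 with a pseudocount of 5, 32 and 16 with a minimum of 20, 15 and 18 with a 4-fold limit, and 343 and 284 with 2-fold between pair means. With no minimum they were 115 and 151. Leaving out each library in turn gave 186 to 742 and 229 to 464, since fewer libraries have to meet the rule. The counts were 73 and 90 with upper-quartile scaling (71 and 87 shared with the reported sets) and 62 and 111 with scaling over genes at 10 FPKM or more (56 and 91 shared). The balance of the directions is not fixed: the first count was the larger with a pseudocount of 5, a minimum of 20, pair means, and without E18.5 (742 and 301) or P28 (318 and 229). No named member turned from one direction to the other under any setting run. For most settings this was fixed in advance, since the pseudocount, minimum, fold limit, pair means or a left-out library cannot turn a member. Only a change of the scaling, or of the genes it rests on, could do so. Of 77 named members, 54 met the rule as deposited, 51 with a pseudocount of 5 and 73 with upper-quartile scaling. No paired analysis was possible because there was 1 library per age and the labels pair none. The unknown depth limits what can be said of members near 5 scaled FPKM and of values listed at 0.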
